A study of Mus musculus with 13 samples.

Results

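The 9 genes described here carry thyroid hormone signalling into cells: the transporter Slc16a10, the deiodinases Dio2 and Dio3, the nuclear receptors Thra and Thrb, their partners Rxra, Rxrb and Rxrg, and the hormone-responsive gene Thrsp. They were taken by symbol from 33803 named genes in 13 libraries of wild-type FvB mice. Thyroid hormone enters cells through membrane transporters. DIO2 converts thyroxine (T4) to the active hormone triiodothyronine (T3), and DIO3 inactivates both. T3 binds the receptors TRα and TRβ, which sit on DNA as partners of retinoid X receptors (RXR), repress nearby genes without hormone and activate them with it. In rodents T3 rises after birth, and in the heart it drives the postnatal change in contractile and pacemaker genes.

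Isolated cells gave 8 libraries: cardiomyocytes at postnatal day (PN) 30, at PN67 and from 2 neonatal preparations, and cardiac fibroblasts at PN28, at PN60 and from 2 neonatal preparations. The other 5 libraries were whole ventricles at embryonic day (E) 17, PN1, PN10, PN28 and PN90. Atria were removed from all hearts. Per the labels' protocols, PN30 and PN67 cardiomyocytes came from Langendorff perfusion, where enzyme flows through the coronary arteries, and neonatal ones from a Cellutron kit with preplating, so age and isolation cannot be told apart in cardiomyocytes. All fibroblasts were preplated after enzymatic digestion. The 2 neonatal cardiomyocyte preparations are titled PN1-2 and PN1, and those of fibroblasts PN1-3 and PN1-2, although the age field of the fibroblasts gives PN1. Nothing in the labels says whether libraries came from separate animals, and p-values then cover the spread among these libraries alone.

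Levels are FPKM (fragments per kilobase of transcript and of sequenced fragments), summed over the transcripts of a gene and scaled between libraries within cells and within ventricles. Later means PN28 to PN67, and changes are differences of log2(FPKM + 1), which understate the change of genes at low FPKM. Calls rest on limma with Benjamini-Hochberg adjustment over all genes tested, at 0.05. All members but Dio3 passed the filter of a mean FPKM of at least 1, in cells and in ventricles. In cells Rxrg, Thrsp and Thrb passed it only through later cardiomyocytes, and Dio2 only through later fibroblasts. Genes low in every class were not tested, and the part of this filter in the counts of called members was not tested. The 2 neonatal libraries of a cell type were alike (Spearman rho over 12072 genes 0.993 in cardiomyocytes and 0.989 in fibroblasts). All 14 cardiomyocyte markers were higher in cardiomyocytes than in fibroblasts at both ages and all 9 fibroblast markers were lower. Neonatal fibroblasts held cardiomyocyte markers at a median of 10.0% and 8.31% of the neonatal cardiomyocyte level, and later fibroblasts at 0.274% (PN28) and 0.292% (PN60). Later cardiomyocytes held fibroblast markers at a median of 14.7% (PN30) and 11.3% (PN67) of the later fibroblast level, against 6.71% and 6.84% in neonatal ones, and 6 of 9 rose and 3 fell with age in cardiomyocytes. Of 10 endothelial markers, 8 fell and 1 rose in cardiomyocytes and 7 fell in fibroblasts. Erythroid markers summed to 15378 and 20440 FPKM in neonatal cardiomyocytes, against 1103 and 712 FPKM at PN30 and PN67. In fibroblasts their sum was 97.3 and 154 FPKM at PN28 and PN60, against 163 and 71.7 FPKM in neonatal ones. Cardiomyocyte markers in neonatal cardiomyocytes stood at a median of 21.7% and 17.8% of the later cardiomyocyte level. The part of these markers in the members' changes was not tested. Macrophage and leukocyte markers summed to 1210 and 971 FPKM in PN28 and PN60 fibroblasts, against 130 and 251.2 FPKM in neonatal ones, and 11 of 12 rose. In cardiomyocytes they summed to 319 and 341 FPKM at PN30 and PN67, against 90.3 and 116 FPKM in neonatal ones, and 7 of 12 rose and 1 fell. No macrophage marker was at 0 in any library. In bulk RNA, fewer cells of a type and less RNA per cell cannot be told apart.

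In cardiomyocytes 5 of the 8 tested members rose with age and none fell, where 37.2% of all genes rose and 29.8% fell. The 5 were Rxrg, Thrsp, Thrb, Rxra and Slc16a10. In fibroblasts 3 members rose, Dio2, Slc16a10 and Thrb, and Thra fell, where 19.7% of all genes rose and 20.8% fell. For 6 members the change itself differed between the cell types (limma, interaction). Of these 5 changed more upwards in cardiomyocytes and 1, Dio2, in fibroblasts, where 32.3% of all genes were called higher and 26.3% lower in this contrast. The 2 changes share no library.

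**Figure D1:**
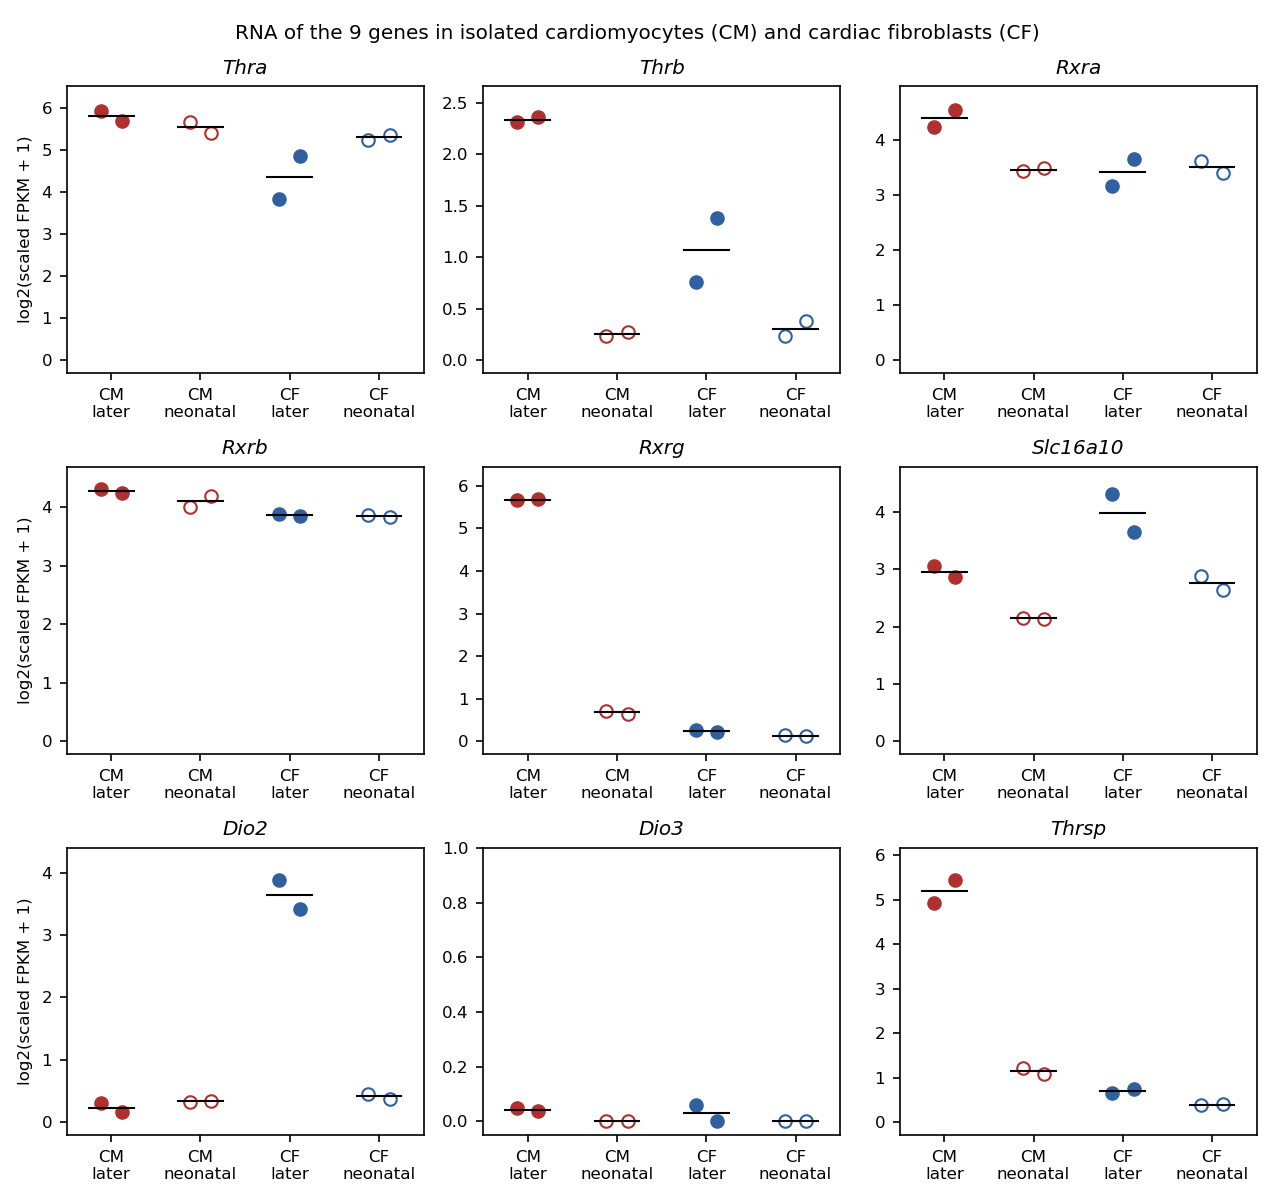
Levels of the 9 genes as log2(scaled FPKM + 1) in isolated cells. Each point is 1 library (left point PN30 or PN28, right point PN67 or PN60; neonatal preparations 1 and 2), the bar is the mean of 2, filled points are later and open points neonatal, cardiomyocytes (CM) red and cardiac fibroblasts (CF) blue; the vertical scale differs between genes. Rxrg and Thrsp stand high only in the 2 later CM libraries and Dio2 only in the 2 later CF libraries.

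Slc16a10 encodes MCT10, a membrane carrier of aromatic amino acids that also carries T3 and T4. It had 7.31 and 6.32 FPKM in PN30 and PN67 cardiomyocytes, against 3.47 and 3.39 FPKM in neonatal ones. In fibroblasts it had 19.04 and 11.6 FPKM at PN28 and PN60, against 6.35 and 5.24 FPKM in neonatal ones. The later libraries lay above the neonatal ones in both cell types, without overlap. The log2 change was 0.82 ± 0.22 (SE; adjusted p = 0.0127) in cardiomyocytes and 1.23 ± 0.22 (adjusted p = 0.00414) in fibroblasts. The difference between these changes did not pass the test (-0.41 ± 0.32, adjusted p = 0.289), but was called without PN60 fibroblasts (-0.78, adjusted p = 0.0110), and was -0.11 without PN28 fibroblasts. The part of the fibroblast markers in the cardiomyocyte rise was not tested. The cardiomyocyte call was lost on FPKM as deposited (0.52, adjusted p = 0.0562), with equal sums without mitochondrially encoded genes (0.42, adjusted p = 0.105), and without PN30 (0.75, adjusted p = 0.0662), neonatal replicate 1 (0.84, adjusted p = 0.0536) or neonatal replicate 2 (0.81, adjusted p = 0.0629). Of the 6 transporters listed, 2 were tested in cells, Slc16a10 among them. Slc7a8 (LAT2, an amino acid carrier) rose in fibroblasts by 2.45 ± 0.37 (adjusted p = 0.00180) and did not pass the test in cardiomyocytes (-0.75, adjusted p = 0.105), where it was called as a fall on FPKM as deposited (-0.99, adjusted p = 0.0414) and with equal sums (-1.03, adjusted p = 0.0350).

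Dio2, the activating deiodinase, had 13.7 and 9.65 FPKM in PN28 and PN60 fibroblasts, against 0.370 and 0.298 FPKM in neonatal ones. It had 0.239 and 0.119 FPKM in PN30 and PN67 cardiomyocytes, against 0.257 and 0.273 FPKM in neonatal ones. Only the 2 later fibroblast libraries were above 1 FPKM among the 8. The mean was 35.0 times higher in later than in neonatal fibroblasts (log2 change 3.23 ± 0.17, adjusted p = 2.53e-05), while the change in cardiomyocytes did not pass the test (-0.10 ± 0.17, adjusted p = 0.609). Macrophage markers were also higher in the later fibroblast libraries (above), and their part in the level of Dio2 was not tested. Dio3, the inactivating deiodinase, has 2 transcripts, of which 1 had a status of LOWDATA (no reliable estimate) in all 13 libraries. Without it Dio3 was at or under 0.0425 FPKM in all 8 cell libraries and listed at about 0 in ventricles, and it was not tested. With it Dio3 was at 0.967 and 0.648 FPKM in PN28 and PN60 fibroblasts, against 0.267 and 0.353 FPKM in neonatal ones, and under 0.1 FPKM in the cardiomyocyte and ventricle libraries. The other 3 tested genes of hormone metabolism and binding included Wsb1, an adaptor for the ubiquitin ligase that marks DIO2 for degradation. It fell in cardiomyocytes to 15.3 and 11.3 FPKM at PN30 and PN67, against 82.6 and 87.7 FPKM in neonatal ones (log2 change -2.60 ± 0.22, adjusted p = 3.86e-05), and did not pass the test in fibroblasts.

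Thra, the main thyroid hormone receptor gene of the heart, had the highest FPKM of the 9 genes in both cell types at both ages except in PN28 fibroblasts. It had 60.02 and 50.8 FPKM in PN30 and PN67 cardiomyocytes, against 49.8 and 41.4 FPKM in neonatal ones. In fibroblasts it had 13.3 and 28.1 FPKM at PN28 and PN60, against 36.6 and 40.0 FPKM in neonatal ones. The later cardiomyocytes lay above the neonatal ones and the later fibroblasts below theirs, and the 2 later fibroblast libraries differed from each other by more than the neonatal pair. The change in cardiomyocytes did not pass the test (0.28 ± 0.30, adjusted p = 0.434) and was below 0 on FPKM as deposited (-0.08) and with equal sums without mitochondrially encoded genes (-0.18). The fall in fibroblasts was called (-0.94 ± 0.30, adjusted p = 0.0388). That call was lost with no filter on low values (adjusted p = 0.103) and without any one of 7 of the 8 cell libraries. Without PN28 the change was -0.41 (adjusted p = 0.0834), without neonatal fibroblast replicate 1 -1.02 (adjusted p = 0.107), without replicate 2 -0.89 (adjusted p = 0.162), and without a cardiomyocyte library it lay between -0.95 and -0.93 (adjusted p between 0.0609 and 0.0627).

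Thrb encodes TRβ, the receptor form that prevails in liver, and had lower FPKM than Thra in all 13 libraries. It had 3.96 and 4.13 FPKM in PN30 and PN67 cardiomyocytes, against 0.179 and 0.211 FPKM in neonatal ones. In fibroblasts it had 0.698 and 1.61 FPKM at PN28 and PN60, against 0.176 and 0.299 FPKM in neonatal ones. The later libraries lay above the neonatal ones in both cell types, and the cardiomyocyte mean was 20.7 times higher at the later ages. Both rises were called (cardiomyocytes 2.08 ± 0.20, adjusted p = 6.63e-05; fibroblasts 0.77 ± 0.20, adjusted p = 0.0172), and the rise was larger in cardiomyocytes (difference 1.31 ± 0.28, adjusted p = 0.00508). The fibroblast call was lost without neonatal fibroblast replicate 1 (0.69, adjusted p = 0.0972) or replicate 2 (0.82, adjusted p = 0.0667). Of its 3 transcripts, Thrb-203 held 80.5% and 73.8% in PN30 and PN67 cardiomyocytes, against 82.5% and 74.6% in neonatal ones. Thrb-202, which codes for a longer protein of 475 residues (461 in the other 2), held at most 0.67% in any library.

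Among the RXR partners, Rxrg changed most in cardiomyocytes. It had 49.4 and 50.5 FPKM in PN30 and PN67 cardiomyocytes, against 0.648 and 0.554 FPKM in neonatal ones, and 0.201 and 0.164 FPKM in PN28 and PN60 fibroblasts, against 0.101 and 0.0932 FPKM in neonatal ones. Every cardiomyocyte library lay above every fibroblast library, and the mean of later cardiomyocytes was 83.1 times that of neonatal ones. The log2 change was 4.99 ± 0.12 (adjusted p = 1.04e-06) in cardiomyocytes, while that in fibroblasts did not pass the test (0.11 ± 0.12, adjusted p = 0.497). Rxra had 18.0 and 22.4 FPKM in PN30 and PN67 cardiomyocytes, against 9.81 and 10.3 FPKM in neonatal ones. It rose there (0.93 ± 0.20, adjusted p = 0.00370), but was not called with equal sums without mitochondrially encoded genes (0.49, adjusted p = 0.0611). In fibroblasts Rxra had 7.996 and 11.7 FPKM at PN28 and PN60, against 11.4 and 9.62 FPKM in neonatal ones. These groups overlapped, and the change (-0.10) did not pass the test and was 0.16 without PN28. Rxrb was the most even of the 3, with 18.8 and 17.9 FPKM in PN30 and PN67 cardiomyocytes against 15.1 and 17.2 FPKM in neonatal ones, and 13.7 and 13.4 FPKM in PN28 and PN60 fibroblasts against 13.5 and 13.2 FPKM in neonatal ones. Neither change passed the test (0.18 and 0.02), and both were below 0 on FPKM as deposited (-0.16 and -0.31) and with equal sums (-0.26 and -0.31). These sums leave out Rxrb-202 for its LOWDATA status. With it the cardiomyocyte change was 0.35 and was called (adjusted p = 0.0274).

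Thrsp (Spot14), a lipogenic gene that T3 raises in liver and fat, had 29.7 and 42.9 FPKM in PN30 and PN67 cardiomyocytes, against 1.32 and 1.12 FPKM in neonatal ones. In fibroblasts it had 0.573 and 0.680 FPKM at PN28 and PN60, against 0.308 and 0.328 FPKM in neonatal ones. The mean of later cardiomyocytes was 29.8 times that of neonatal ones (4.05 ± 0.18, adjusted p = 4.54e-06). The later fibroblasts also lay above the neonatal ones, but below 1 FPKM and without passing the test (0.30 ± 0.18, adjusted p = 0.221). With 0.1 added to FPKM in place of 1 this change was 0.79 and called (adjusted p = 0.0304).

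**Figure D2:**
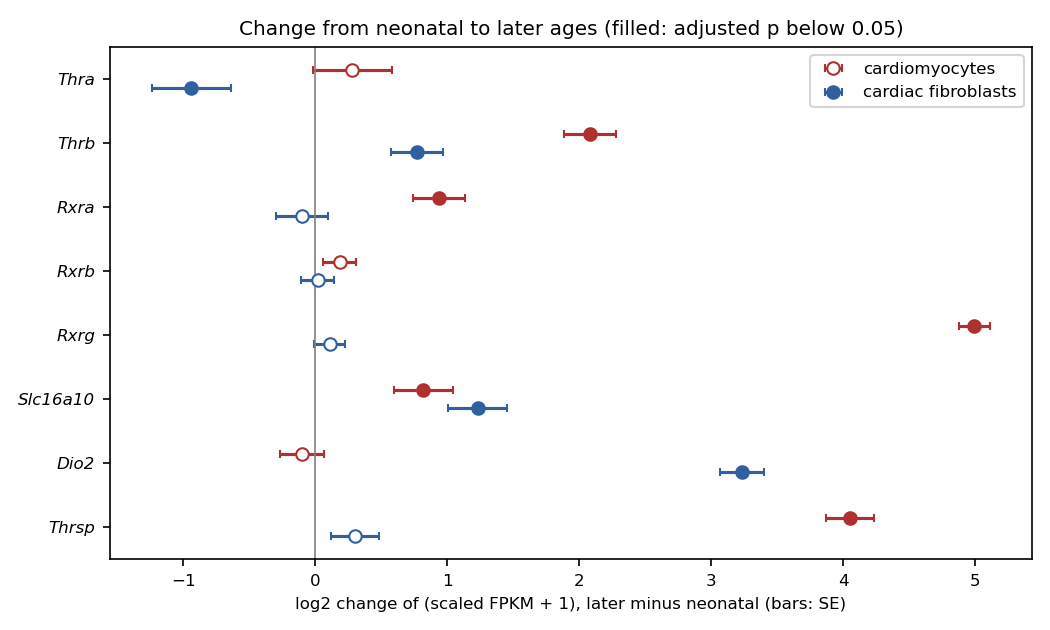
Change of the 8 tested genes with age, later minus neonatal, in cardiomyocytes (red) and cardiac fibroblasts (blue). Points are differences of mean log2(scaled FPKM + 1), bars are SE, and filled points had an adjusted p below 0.05. Rxrg and Thrsp moved by 4.99 and 4.05 in cardiomyocytes, and Dio2 by 3.23 in fibroblasts.

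Set side by side, few of these genes were called between cardiomyocytes and fibroblasts at the neonatal stage. Only Rxrg (0.54 ± 0.12, adjusted p = 0.00860) and Thrsp (0.75 ± 0.18, adjusted p = 0.0137) were called, both higher in cardiomyocytes, where 21.4% of all genes were higher and 19% lower. Rxrg, Thrb and Dio2 lay below 1 FPKM in all neonatal cells and Thrsp at or below 1.32 FPKM, where adding 1 understates differences. Among the alternatives the Rxrg difference reached 1.83 and that of Thrsp 1.65. The part of the cardiomyocyte markers held by neonatal fibroblasts was not tested. Slc16a10, lower in neonatal cardiomyocytes, was not called (-0.61, adjusted p = 0.0618), but was with equal sums without mitochondrially encoded genes (-0.74, adjusted p = 0.0220), with 0.1 added in place of 1 (-0.73, adjusted p = 0.0454), without PN60 fibroblasts (adjusted p = 0.00627) and without PN28 fibroblasts (adjusted p = 0.00620). The Rxrg call was lost without either neonatal fibroblast replicate or cardiomyocyte replicate 1 (adjusted p between 0.0535 and 0.0803), and that of Thrsp without any one of the 4 neonatal libraries (adjusted p between 0.0564 and 0.0999). At the later ages all 8 were called, 6 higher and 2 lower in cardiomyocytes, where 38.4% of all genes were higher and 39.3% lower. The higher ones were Rxrg (5.43 ± 0.12, adjusted p = 2.57e-08), Thrsp (4.50 ± 0.18, adjusted p = 3.56e-07), Thra (1.46 ± 0.30, adjusted p = 0.00243), Thrb (1.26 ± 0.20, adjusted p = 0.000545), Rxra (0.98 ± 0.20, adjusted p = 0.00217) and Rxrb (0.41 ± 0.12, adjusted p = 0.0152). The lower ones were Dio2 (-3.41 ± 0.17, adjusted p = 9.68e-07) and Slc16a10 (-1.03 ± 0.22, adjusted p = 0.00334). The Rxrb call was lost with equal sums without mitochondrially encoded genes (0.17, adjusted p = 0.225) and without PN30 cardiomyocytes (0.40, adjusted p = 0.0646). The ratio of later cardiomyocyte to later fibroblast means was 274 for Rxrg and 0.0153 for Dio2.

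In whole ventricles, where contributions of all cell types add up, 3 of 8 tested members rose over the 5 stages and none fell, where 20.4% of all genes rose and 14.6% fell. Rxrg had 0.246, 0.767, 11.1, 36.0 and 34.7 FPKM at E17, PN1, PN10, PN28 and PN90. Thrsp had 0.789, 3.71, 7.65, 53.1 and 29.95 FPKM, and Thrb 0.389, 0.668, 4.50, 6.78 and 7.87 FPKM. Thrb increased at every step, while Rxrg and Thrsp were highest at PN28. Their slopes per stage were 1.41 ± 0.19 (adjusted p = 0.00508), 1.17 ± 0.19 (adjusted p = 0.00793) and 0.76 ± 0.11 (adjusted p = 0.00609). Cell type markers moved with the stages too, as 8 of 11 tested cardiomyocyte markers rose (their sum was 11455, 17319, 19614, 30668 and 33994 FPKM) and 9 of 9 tested macrophage and leukocyte markers rose (32.9, 37.5, 65.0, 202.7 and 153 FPKM), and their part in these rises was not tested. With 1 library a stage the test rests on 3 residual degrees of freedom. None of the 3 was called on a slope over log2 of days after conception (adjusted p = 0.0511 for Rxrg, 0.0631 for Thrsp and 0.0529 for Thrb), and Thrsp was not called without E17 (1.07, adjusted p = 0.0667).

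The other 5 tested members did not pass the test in ventricles. Thra had 28.0, 35.7, 33.3, 26.1 and 23.1 FPKM over the stages, highest at PN1 and lowest at PN90. Dio2 had 1.30, 1.64, 1.35, 0.743 and 0.743 FPKM, with the 2 latest libraries lowest. On FPKM as deposited the slopes of Thra (-0.22, adjusted p = 0.0406) and Dio2 (-0.21, adjusted p = 0.0412) were called as falls, against -0.10 and -0.14 after scaling. Slc16a10 lay between 2.89 and 5.41 FPKM, Rxra between 6.80 and 9.62 FPKM and Rxrb between 7.67 and 10.9 FPKM, and their slopes, 0.10, 0.09 and 0.10, were below 0 on FPKM as deposited. Thus Dio2 ended lowest in ventricles while it was higher in later than in neonatal fibroblasts. Ventricle libraries were depleted of ribosomal RNA (Ribo-Zero Gold, ScriptSeq v2) and cell libraries made with TruSeq RNA kits, so levels are not compared across them.

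**Figure D3:**
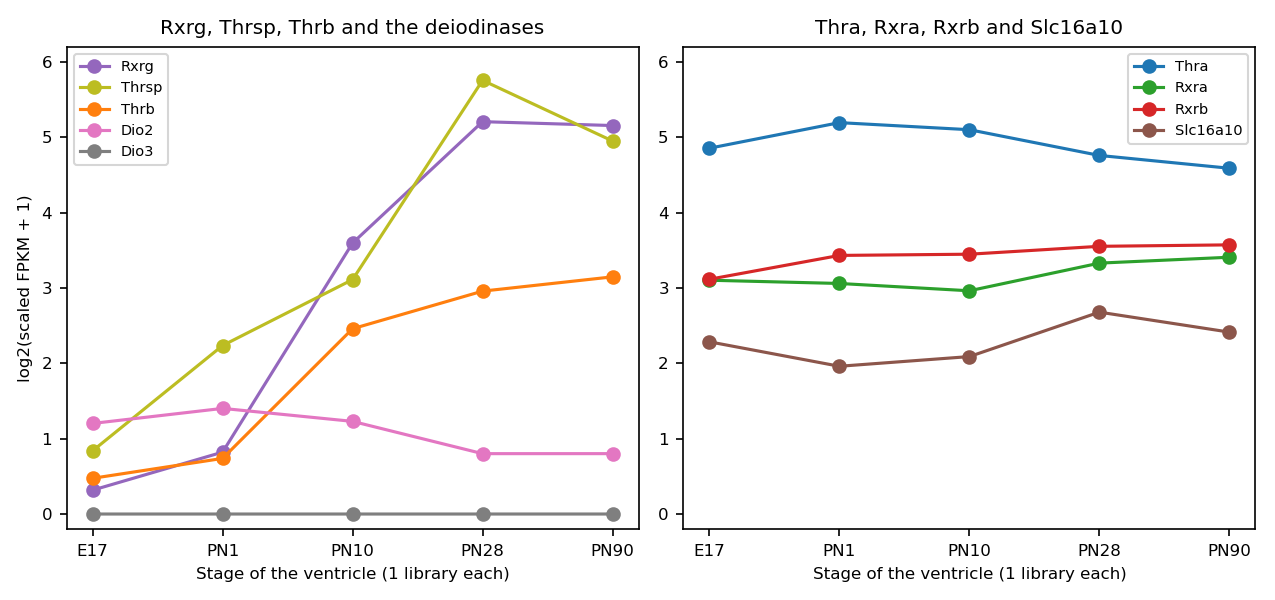
Levels in whole ventricles as log2(scaled FPKM + 1) at E17, PN1, PN10, PN28 and PN90, 1 library a stage. Left, Rxrg, Thrsp, Thrb, Dio2 and Dio3; right, Thra, Rxra, Rxrb and Slc16a10. Rxrg, Thrsp and Thrb stand higher from PN10 on than at E17, and the genes on the right move by less than 1 unit.

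The transcripts of Thra matter because its splice forms code for different proteins. Thra-202 codes for TRα1, which binds T3. Thra-201 codes for TRα2, which has another C-terminal end, does not bind T3 and opposes TRα1. Thra-203 enters the last exon of Thra-201 117 bases (39 codons) further in, reads on in the same frame, and is modelled only as its coding bases. The 3 forms share their first 1111 coding bases (370 codons) and then part, with 119 further coding bases in Thra-202, 365 in Thra-201 and 129 in Thra-203. The 1240 coding bases of Thra-203 do not end on a whole codon. Its model thus stops inside the coding sequence, and the 129 bases are not its full end. The branch is shown as coding bases 1082 to 1171 of each form (chromosome 11, forward strand, GENCODE M21 transcripts, GRCm38), with the bases after the shared part in capitals.
Thra-202 (TRα1): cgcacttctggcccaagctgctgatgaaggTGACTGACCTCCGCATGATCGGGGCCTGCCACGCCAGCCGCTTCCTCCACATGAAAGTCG
Thra-201 (TRα2): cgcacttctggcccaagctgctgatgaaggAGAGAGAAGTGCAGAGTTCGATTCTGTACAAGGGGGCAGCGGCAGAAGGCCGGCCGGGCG
Thra-203: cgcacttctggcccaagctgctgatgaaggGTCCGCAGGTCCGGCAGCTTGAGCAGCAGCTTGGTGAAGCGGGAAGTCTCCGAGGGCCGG
These 3 forms held 91.7% to 99.0% of Thra FPKM in the 13 libraries, and the other 6 transcripts the rest.

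The share of the T3-binding form was higher in later cardiomyocytes. Thra-202 held 33.2% of Thra in both PN30 and PN67 cardiomyocytes, against 19.9% and 24.5% in neonatal ones. This change of 11.01 percentage points was called (adjusted p = 0.0106; an isoform needed a change of 10 points as well as this p), where 17.9% of 11156 isoforms were called. Without neonatal cardiomyocyte replicate 1 it was 8.71 points and not called (adjusted p = 0.0765). Thra-201 held 37.3% and 37.8% in PN30 and PN67 cardiomyocytes, against 45.8% and 44.9% in neonatal ones, below the 10 points (-7.80, adjusted p = 0.0682). In TRα1 terms the level of Thra-202 was 19.9 and 16.9 FPKM in PN30 and PN67 cardiomyocytes, against 9.91 and 10.1 FPKM in neonatal ones, while Thra-201 and Thra-203 together had 37.8 and 32.8 FPKM against 38.1 and 29.7 FPKM. The level of Thra-202 divided by that of the other 2 forms was 0.528 and 0.515 in PN30 and PN67 cardiomyocytes, against 0.260 and 0.341 in neonatal ones.

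In fibroblasts no Thra form was called with age, where 3.85% of isoforms were. Thra-202 held 25.3% and 23.8% at PN28 and PN60, against 20.3% and 18.6% in neonatal ones. Thra-203 held 11.9% and 22.1%, against 30.4% and 29.0% (-12.7 points, adjusted p = 0.0692), and was called without PN60 (-17.8 points, adjusted p = 0.0148). Between cell types none was called at the neonatal stage, where 6.93% of isoforms were. At the later ages Thra-201 held less of Thra in cardiomyocytes, 37.3% and 37.8% at PN30 and PN67 against 61.2% and 52.8% in PN28 and PN60 fibroblasts (-19.4 points, adjusted p = 0.00103), where 27.8% of isoforms were called. Thra-203, which held 25.6% and 26.7% there against 11.9% and 22.1%, was not called (9.09 points, adjusted p = 0.0571), but was without PN60 fibroblasts (14.2 points, adjusted p = 0.00367). In ventricles Thra-202 held 22.6%, 23.3%, 28.2%, 35.6% and 39.8% from E17 to PN90, and its level divided by that of the other 2 forms was 0.314, 0.331, 0.420, 0.579 and 0.767, higher at each stage than at the one before. The ventricle shares were not tested.

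**Figure D4:**
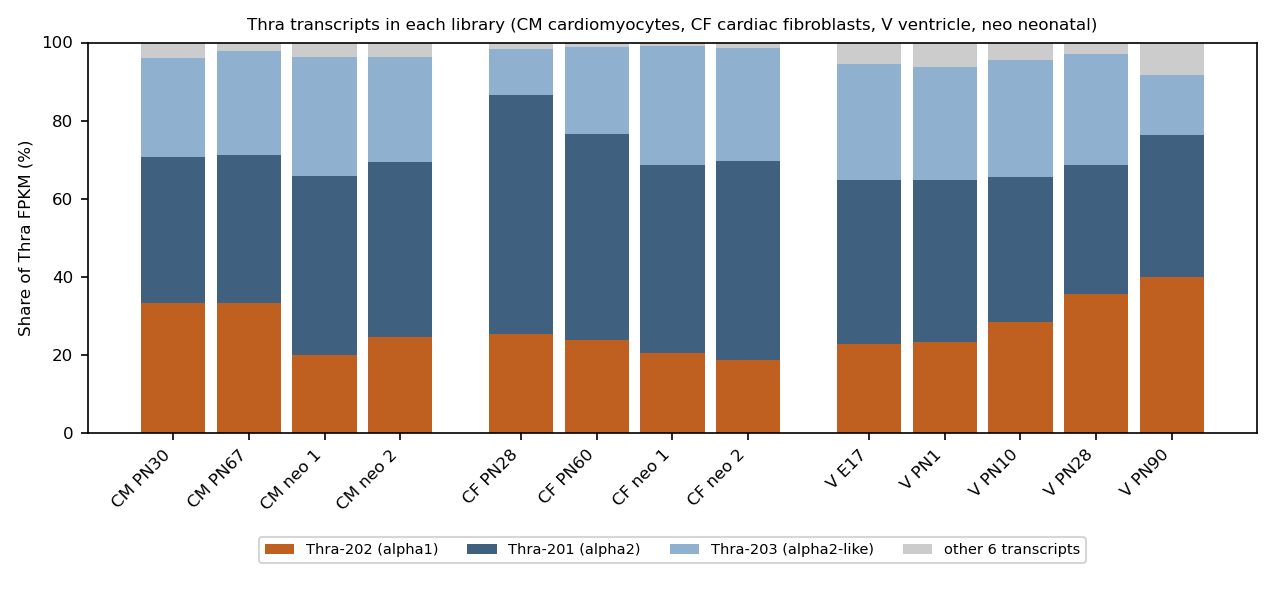
Share of each Thra transcript in the FPKM of Thra, in percent, stacked for each library: cardiomyocytes (CM), cardiac fibroblasts (CF) and ventricles (V), neo for neonatal. The Thra-202 (TRα1) part is 33.2% in both later CM libraries, against 19.9% and 24.5% in neonatal CM, and reaches 39.8% in the PN90 ventricle.

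One limit bears on Thra alone. The last 1075 bases of the Thra locus (mm9 chr11:98629246-98630320) overlap the 3′ end of Nr1d1 (Rev-erbα, a circadian repressor), which lies on the opposite strand. In GENCODE M21, 263 exon bases of Thra-201 and 130 of Thra-203 lie within exons of the coding transcript of Nr1d1, and none of Thra-202, which ends before the overlap, at base 98626425 in mm9. The sources used here do not say whether strand was used in the deposited estimates. Nr1d1 had 40.6 and 38.3 FPKM in PN30 and PN67 cardiomyocytes, against 32.7 and 25.4 FPKM in neonatal ones. In fibroblasts it had 151 and 154 FPKM at PN28 and PN60, against 18.9 and 20.5 FPKM in neonatal ones (log2 change 2.90 ± 0.14, adjusted p = 2.03e-05). In ventricles it had 1.79, 2.95, 3.996, 10.6 and 12.9 FPKM from E17 to PN90. Among cells, Nr1d1 and the Thra-201 share were both highest in later fibroblasts, where the Thra-203 share was lowest. In cardiomyocytes the later libraries had more Nr1d1 and a smaller Thra-201 share than the neonatal ones. In ventricles Thra-201 held 42.3%, 41.5%, 37.4%, 33.1% and 36.4% from E17 to PN90, while Nr1d1 was higher at each stage than at the one before. The part of Nr1d1 in the shares of Thra-201 and Thra-203, and in the ratio of Thra-202 to both, was not tested.

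The shares of the Rxrg forms were also unlike between ages. Rxrg-202 starts 19925 bases downstream of Rxrg-201 and codes for 340 residues, against 463 in the 3 longer forms. It held 95.8% and 94.2% of Rxrg in PN30 and PN67 cardiomyocytes, against 65.0% and 56.8% in neonatal ones, and 49.0%, 81.9%, 94.6%, 95.7% and 94.2% in ventricles from E17 to PN90. Neonatal cardiomyocytes and E17 and PN1 ventricles held under 1 FPKM of Rxrg in all, so these shares were not tested. In fibroblasts, where Rxrg was at or under 0.201 FPKM, Rxrg-202 held less than 3% at PN28 and PN60, against 46.7% and 35.7% in neonatal ones.

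Promoters of the 3 genes that rose in both cardiomyocytes and ventricles, and of Dio2, are shown. AGGTCA, a half-site that thyroid hormone receptors can bind, was looked for in them. For Rxrg and Thrb the promoter that holds it is shown, and the other one, which does not, is left out. RefSeq holds 12 promoters (GRCm38.p6, 250 bases before and 50 after the start) for 8 of the 9 genes and none for Thra. The start of the second Rxrg promoter lies 44 bases upstream of the first base of Rxrg-202, the main form in cardiomyocytes. Capitals mark AGGTCA or TATAAA on the strand of the gene.
Rxrg, second promoter, chr1:167618015-167618314, forward strand: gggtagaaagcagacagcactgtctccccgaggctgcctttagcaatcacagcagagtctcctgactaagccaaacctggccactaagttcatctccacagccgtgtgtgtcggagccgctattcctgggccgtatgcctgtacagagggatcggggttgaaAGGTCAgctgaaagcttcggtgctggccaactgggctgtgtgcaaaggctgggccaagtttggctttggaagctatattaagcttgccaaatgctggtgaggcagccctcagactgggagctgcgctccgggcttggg
Thrb, first promoter, chr14:17660710-17661009, forward strand: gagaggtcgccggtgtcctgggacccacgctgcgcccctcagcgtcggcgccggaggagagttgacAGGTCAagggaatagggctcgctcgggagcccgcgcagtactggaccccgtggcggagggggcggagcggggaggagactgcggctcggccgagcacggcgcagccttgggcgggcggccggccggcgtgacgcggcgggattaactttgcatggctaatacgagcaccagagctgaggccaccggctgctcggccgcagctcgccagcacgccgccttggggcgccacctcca
Thrsp, chr7:97417501-97417800, reverse strand: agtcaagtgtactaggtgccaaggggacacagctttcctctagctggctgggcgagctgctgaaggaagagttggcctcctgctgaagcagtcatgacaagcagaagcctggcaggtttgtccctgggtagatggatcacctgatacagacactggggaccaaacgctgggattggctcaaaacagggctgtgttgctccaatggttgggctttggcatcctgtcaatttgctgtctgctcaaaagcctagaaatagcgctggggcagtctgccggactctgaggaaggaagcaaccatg
Dio2, chr12:90738989-90739288, reverse strand: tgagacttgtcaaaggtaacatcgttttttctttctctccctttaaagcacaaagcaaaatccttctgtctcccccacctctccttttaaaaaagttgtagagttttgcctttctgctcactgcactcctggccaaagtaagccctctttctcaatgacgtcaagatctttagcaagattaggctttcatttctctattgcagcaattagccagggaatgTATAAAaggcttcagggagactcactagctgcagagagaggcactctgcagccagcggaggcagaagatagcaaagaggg
AGGTCA, searched on both strands, stands at -88 from the start in the second Rxrg promoter and at -184 in the first Thrb promoter, and also in the second Rxra promoter. These are 3 of the 12 promoters, where 16.3% of 32851 mouse promoters hold it. The direct repeat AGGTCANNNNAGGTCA, which contains the half-site, is in none of the 12 and in 0.0152% of all. TATAAA, which overlaps neither, stands at -30 in Dio2 and is in 3 of the 12, against 13.6% of all. A match is a run of letters in this window and was not linked to any measurement.

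Genes that thyroid hormone is known to raise were followed as a list of 14, Thrsp among them, chosen with earlier results of these data known. In cardiomyocytes 10 of the 11 tested rose and none fell, with a median log2 change of 2.63 against 0.10 over all genes. Of all genes tested, 37.2% rose and 29.8% fell in cardiomyocytes, 19.7% and 20.8% in fibroblasts, and 20.4% and 14.6% in ventricles. Beside Thrsp, the largest rises were those of Slc2a4 (the insulin-responsive glucose transporter, 4.09 ± 0.20), Hcn2 (a pacemaker channel, 3.32 ± 0.23), Kcnd2 (a transient outward potassium channel, 2.89 ± 0.18) and Ucp3 (a mitochondrial uncoupling protein, 2.71 ± 0.37). Slc2a4 had 221 and 231 FPKM in PN30 and PN67 cardiomyocytes, against 13.82 and 10.9965 FPKM in neonatal ones, and Hcn2 24.4 and 14.1 FPKM against 0.830 and 1.11 FPKM. In fibroblasts 1 of the 11 rose (Hr) and 2 fell (Ryr2 and Adrb1), with a median of -0.23 against -0.02. On FPKM as deposited 1 rose and 4 fell there, while 2 rose without PN28 and none rose without neonatal fibroblast replicate 2. In ventricles 7 of 12 rose, with a median slope of 0.56 against 0.02, and 2 of 12 rose without E17. After Thrsp, the largest called slopes there were those of Klf9, Slc2a4, Kcnd2 and Ryr2. The cardiomyocyte and macrophage markers also rose in ventricles. Myh6 and Atp2a2, the best known of these genes, had no usable value, and Kcnd3 was not tested in cells. All 14 cardiomyocyte markers rose in cardiomyocytes too (median 2.30), and their part in the list's rise was not tested. Ryr2 is counted both in this list and among those markers, so the 2 sets are not separate.

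The 5 genes that the hormone is known to lower in heart did not fall in cardiomyocytes, where 37.2% of all genes rose and 29.8% fell. There 4 of 5 rose: Pln (phospholamban, inhibitor of the calcium pump, 3.28 ± 0.11), Myh7 (the slow myosin heavy chain, 1.504 ± 0.17), Adcy5 (1.41 ± 0.20) and Adcy6 (0.83 ± 0.14), both adenylyl cyclases. Myh7 had 573 and 563 FPKM in PN30 and PN67 cardiomyocytes, against 226 and 176 FPKM in neonatal ones. The list median was 1.41, against 0.10 over all genes, and 3 of 5 rose with equal sums without mitochondrially encoded genes. All 14 cardiomyocyte markers rose in cardiomyocytes too (median 2.30), and their part in these rises was not tested. In fibroblasts 4 of 5 fell, where 19.7% of all genes rose and 20.8% fell. Myh7 (-4.48 ± 0.17) and Pln (-3.22 ± 0.11) fell most, together with all 14 cardiomyocyte markers (median -3.89), whose part was not tested. Pln is itself among those 14 markers. In ventricles 3 were tested and none was called, while with equal sums Slc8a1, the sodium-calcium exchanger, was called as a fall (slope -0.29, adjusted p = 0.0499), against -0.18 (adjusted p = 0.235), and Myh7 and Pln had no usable value.

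**Figure D5:**
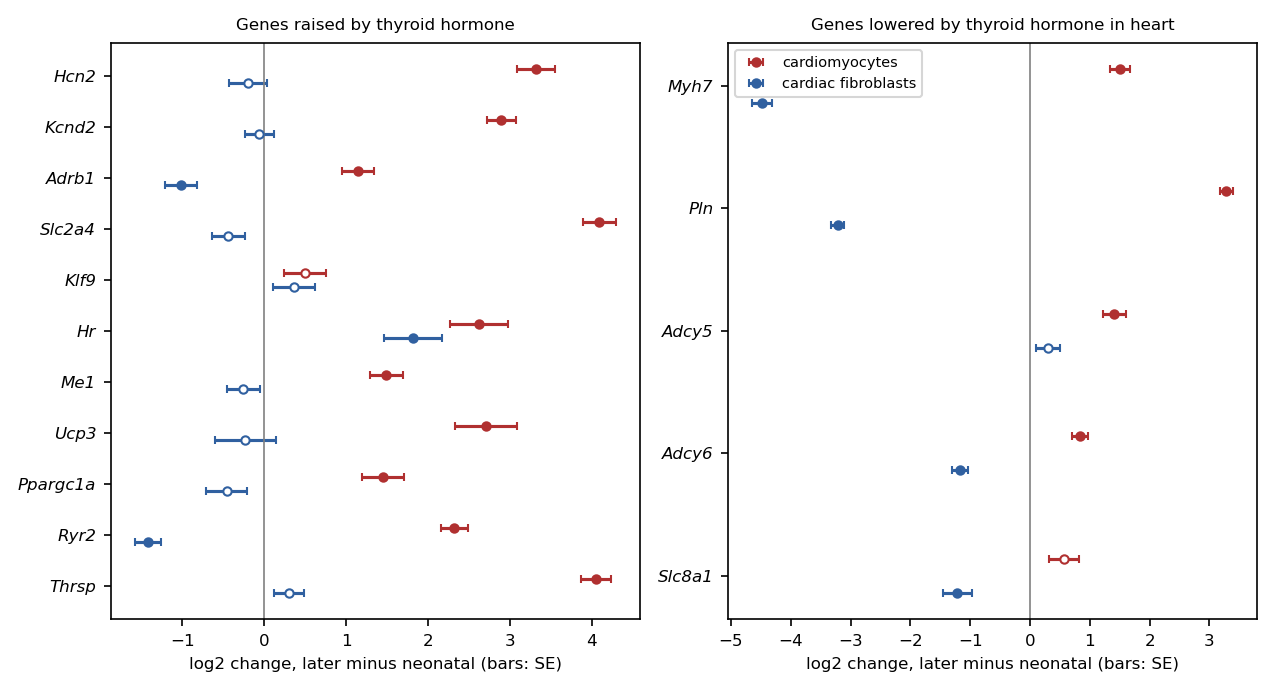
Change with age of genes that thyroid hormone is known to raise (left) and to lower in heart (right), later minus neonatal, in cardiomyocytes (red) and cardiac fibroblasts (blue). Points are log2 changes, bars are SE, and filled points had an adjusted p below 0.05. In cardiomyocytes 10 of 11 genes on the left and 4 of 5 on the right are filled and above 0, where 37.2% of all genes rose.

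Other genes that work with the receptors moved in both directions, as all genes did. Over all genes 37.2% rose and 29.8% fell in cardiomyocytes, 19.7% and 20.8% in fibroblasts, and 20.4% and 14.6% in ventricles. Of 11 other RXR partner receptors tested in cells, 4 rose and 3 fell in cardiomyocytes (median -0.08, against 0.10 over all genes), while on FPKM as deposited 3 rose and 5 fell, without PN30 4 rose and 2 fell, and without either neonatal cardiomyocyte replicate 3 rose and 2 fell. Ppara, a receptor of fatty acids, rose by 2.41 ± 0.15, to 16.4 FPKM at both PN30 and PN67, against 2.60 and 1.97 FPKM in neonatal ones, and Nr1h3 (LXRα, an oxysterol receptor) rose by 2.49 ± 0.27. Nr4a2 (an orphan receptor, -3.02 ± 0.28) and Rara (a retinoic acid receptor, -1.63 ± 0.27) fell. In fibroblasts 3 rose, Nr1h3, Ppard and Nr4a2, and 2 fell (median 0.39, against -0.02), while on FPKM as deposited 2 rose and 4 fell, without PN28 5 rose and 1 fell, without PN60 3 rose and 4 fell, and without either neonatal fibroblast replicate 2 rose and 1 fell. In ventricles 3 of 8 rose, Nr1h3, Pparg and Ppara, and Rara fell, and 1 rose without E17. Of 13 corepressors and coactivators, 2 rose and 5 fell in cardiomyocytes, with falls of Crebbp (-1.71 ± 0.16) and Nrip1 (-1.12 ± 0.20) and a rise of Hdac3 (0.88 ± 0.12), a deacetylase of the corepressor complex. With equal sums without mitochondrially encoded genes 1 rose and 9 fell there. In fibroblasts 1 rose and 2 fell, 6 fell on FPKM as deposited, 3 rose and 1 fell without PN28, 1 fell without neonatal fibroblast replicate 2, and none was called without replicate 1. The corepressor gene Ncor1 had no usable value.

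The genes whose levels followed each member most closely over the 8 cell libraries were named by Pearson's r of log2(FPKM + 1), as a description of libraries that fall into 4 classes. They were Cdnf, Slc38a3 and Art1 for Rxrg (r between 0.9993 and 0.9995), Zfp775, Agtpbp1 and Kyat3 for Thrsp, Gpr108, Hfe and Pde7b for Thrb, and Trim30c, Mmp3 and Traf1 for Dio2. They were Nedd4, Tpmt and Commd10 for Thra, Exosc3, Gnpnat1 and Ttc39c for Slc16a10, Inpp4a, Gm10135 and Hpn for Rxra, and Fzr1, Pak6 and Ttc7b for Rxrb. The lowest of these r values was 0.973, for Ttc7b with Rxrb.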

How the data were processed

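RNA was measured in 13 libraries (8 of isolated cells, 5 of ventricles). The authors deposited FPKM of 94696 transcripts a library in the isoform format of Cufflinks, with a coverage value, 95% confidence bounds and a status, per the file headers. Per the submitters' processing notes, reads were processed with TopHat2 2.0.5 and Cufflinks 2.1.1 on mm9. The release of the annotation was not given in the sources used here. Cufflinks shares fragments among overlapping isoforms by estimate, so forms that differ little are poorly resolved. Depth shows only through the deposited coverage, whose median ratio to FPKM was 19.5 to 32.8, and the median half-width of the FPKM interval 7.15% to 8.44% of the value.

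Identifiers were matched to GENCODE M21 for names and coding bases (82379, 87.0%), and coordinates in mm9 count from 1. Transcripts under 200 bases, or with LOWDATA status in a library of the set, were left out, as were genes with a HIDATA or FAIL transcript, listed at 0 (89 in cells, 64 in ventricles). Gene FPKM was scaled by the median of ratios to the geometric mean, within cells and within ventricles. Genes with a mean of at least 1 were tested on log2(FPKM + 1) with limma 3.58.1 (R 4.3.3, trend), two-sided: 12072 in 4 classes of cells (4 residual degrees of freedom; the 2 later ages form one class, as none has a replicate), and 11617 as a slope over the ventricle stages. Isoforms were tested on log2 of the ratio to the gene's other isoforms, 0.5 added, in genes with a mean FPKM of 5 or more and no library under 1, with shares of 5% to 95%. The procedures were tested on simulated data. Alternatives changed the scaling, the pseudocount, the filter, the transcripts kept, the stage scale and the libraries.

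The 9 members and the gene lists were chosen with earlier results of these data known. Named were the members, the Thra isoforms, up to 4 called genes of each list with the largest change, genes with no usable value, and the 3 genes most like each member. Nr1d1 is named for its overlap with Thra. Some listed genes are not reported here and were taken out of the lists and their counts.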

Additional observations from a re-analysis of the deposited data

Results flagged for a closer look

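The change with age differed between cardiomyocytes and fibroblasts for 6 of the 8 members tested (limma, interaction of cell type and age; change in cardiomyocytes minus change in fibroblasts, log2). The difference was 4.88 ± 0.17 for Rxrg (adjusted p = 3.94e-06), 3.75 ± 0.26 for Thrsp (adjusted p = 2.97e-05) and 1.31 ± 0.28 for Thrb (adjusted p = 0.00508). For Dio2 it was -3.33 ± 0.24 (adjusted p = 3.63e-05), the only one in favour of fibroblasts. For these 4 the difference was called under all 14 alternatives.

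For Rxra the difference was 1.04 ± 0.28 (adjusted p = 0.0143) and was not called without neonatal fibroblast replicate 1 (0.93, adjusted p = 0.0547) or PN67 cardiomyocytes (0.91, adjusted p = 0.0521). For Thra it was 1.22 ± 0.42 (adjusted p = 0.0387), was 0.67 without PN28 fibroblasts and 1.69 without PN60 fibroblasts (called in both), and was not called under 8 of 14 alternatives (adjusted p between 0.0629 and 0.117 in those), among them each leave-out of a neonatal or a cardiomyocyte library.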

How the results depend on the processing

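Members' results kept their direction and side of the threshold in 698 of 764 alternatives, were no longer called in 40, newly called in 11 and turned sign in 15. None of the 15 was called before or after, and the cause was not tested. Scaling moved the median log2 change of all genes in cardiomyocytes to -0.19 (FPKM as deposited) and -0.28 (equal sums without mitochondrially encoded genes), against 0.10, and in fibroblasts to -0.29 and -0.30, against -0.02. The share of called genes that were higher moved with it: in cardiomyocytes to 40.9% and 36.5%, against 55.6%, in fibroblasts to 24% under both, against 48.6%, in ventricles to 27% and 30.5%, against 58.3%, and between neonatal cardiomyocytes and fibroblasts to 40.6% with equal sums, against 53%.

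On FPKM as deposited the log2 change was -0.076 for Thra and -0.16 for Rxrb in cardiomyocytes, -0.31 for Rxrb in fibroblasts, and the ventricle slope -0.027 for Rxra, -0.012 for Rxrb and -0.0051 for Slc16a10. With equal sums it was -0.18 for Thra and -0.26 for Rxrb in cardiomyocytes, -0.31 for Rxrb in fibroblasts and -0.012 for the Rxra slope. Leaving out 1 library gave ranges across 0: Rxra in fibroblasts -0.33 to 0.16, Rxrb in fibroblasts -0.0090 to 0.047, and, cardiomyocytes minus fibroblasts when neonatal, Rxra -0.16 to 0.056, Thrb -0.12 to 0.023 and the Thra-203 share -2.82 to 0.91 points.

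Of the counts over all genes, called genes in ventricles were 1060 on log2 days, against 4059. Leaving out 1 library gave 6329 to 9164 called genes in cardiomyocytes, 2745 to 6180 in fibroblasts, 2606 to 6464 between the neonatal cell types and 1233 to 4489 in ventricles, and 138 to 536 isoforms in fibroblasts and 298 to 879 between the neonatal cell types. No paired analysis was possible because the labels give no number that pairs libraries. With 2 libraries a class, small changes were not detectable at this precision.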
